A study of Mus musculus with 8 samples.

Results

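Whole lungs of WL chimeras were set against whole lungs of WW chimeras. WL mice are LysM-DTR recipients that carried bone marrow of wild-type donors, and WW mice are wild-type recipients of wild-type marrow, so that the diphtheria toxin receptor (DTR) was present in the recipient's own cells in WL and in no cell in WW. All animals were male, 22 weeks old and had received diphtheria toxin (DT) 72 hours before the lungs were taken. The comparison uses 4 arrays of the 8 in the series, chosen by their labels: 2 WL mice and 2 WW mice, with 1 one-colour Agilent array per mouse. The other 4 arrays are of LL mice (LysM-DTR marrow in LysM-DTR recipients) and LW mice (LysM-DTR marrow in wild-type recipients), 2 mice each. They also had DT, they enter the estimate of spread, and their values are given beside some genes. No array is of a mouse without toxin, so an effect of DT on wild-type lungs is shared by both groups and cannot be seen.

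In LysM-DTR mice the promoter of the lysozyme M gene (Lyz2) drives the receptor that lets DT enter a cell, where the toxin stops protein synthesis. Myeloid cells (neutrophils, monocytes and macrophages) make lysozyme M, and so do alveolar type 2 cells of the lung, which secrete surfactant and serve as progenitors of the flat type 1 cells of gas exchange. In a marrow chimera most blood leukocytes come from the donor, whereas epithelium and some long-lived tissue macrophages may remain of the recipient. A WL lung can therefore lose type 2 cells and resident macrophages of the recipient while the wild-type marrow continues to supply leukocytes. In RNA of a whole lung, fewer cells of a type and less RNA per cell cannot be told apart.

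Levels are log2 processed intensities minus the 75th percentile of the array, so that 0 is the 75th percentile and 1 unit is a doubling. The 75th percentile was 269.7 and 324.4 intensity units on the WL arrays and 244.3 and 208.6 on the WW arrays, and 71.1 and 71.3% of non-control spots in WL and 66.7 and 72.3% in WW were well above background. Markers of lung cells were present in both groups: the surfactant gene Sftpc was at 9.51 and 7.55 in WL and 9.63 and 9.81 in WW, and the club cell gene Scgb1a1 was at 9.35 and 8.99 in WL and 9.49 and 9.68 in WW. The series used 1 slide and 1 scan. Arrays of LysM-DTR recipients (WL and LL) occupied one column of that slide and arrays of wild-type recipients the other, so that recipient genotype and slide column cannot be told apart.

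The 2 WL mice differed from each other far more than the 2 WW mice. Across 25830 genes the Pearson correlation was 0.960 between the WL arrays and 0.992 between the WW arrays (genes are not independent replicates). WL replicate 1 correlated with the WW arrays at 0.990 and 0.990, and WL replicate 2 at 0.955 and 0.953. The levels of 4526 genes differed by more than 1 log2 unit between the WL mice, against 669 genes between the WW mice. Against the WW mean, 352 genes were at least 1 unit higher and 316 at least 1 unit lower in WL replicate 1, and 2391 were higher and 2745 lower in WL replicate 2. In the plot of the WL mice against each other most genes spread along the axis of replicate 2, and the mitosis genes are set apart in both mice.

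**Figure D1:**
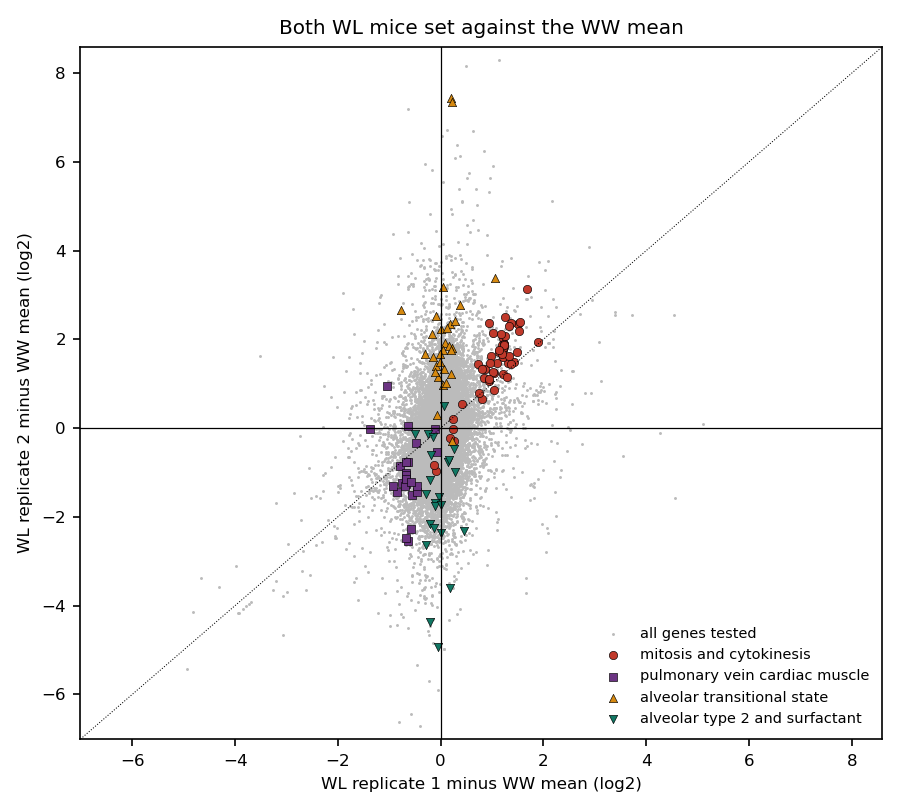
Difference of each WL mouse from the WW mean (log2) for all 25830 genes tested, WL replicate 1 on the x axis and WL replicate 2 on the y axis, with 4 gene lists coloured; the dotted line marks equal differences. Mitosis genes lie to the upper right, cardiac muscle genes to the lower left, and transitional state and type 2 cell genes along the vertical axis, far from 0 in replicate 2.

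Because of this spread, both WL values are given throughout, and a gene is described as separated when both WL mice lie on one side of both WW mice. Both WL mice lay above both WW mice in 4527 of 25830 genes (17.5%) and below both in 6316 (24.5%). A group of 2 against 2 is thus separated often, and these shares are the background against which list counts are to be read. The gap between the groups, from the nearest WL mouse to the nearest WW mouse, was at least 1 log2 unit in 98 genes that were higher in WL (0.379%) and in 52 that were lower (0.201%). Under a normexp background correction with an offset of 50, which compresses dim signals, those 2 counts were 16 and 1, and 37.1% of genes lay below WW against 16.1% above it. Of the 98 higher genes 29 belong to a list of 52 mitosis and cytokinesis genes, 2 to a list of DNA replication genes and 20 are immunoglobulin segments. Of the 52 lower genes 17 carry a gene symbol, and 2 belong to any of the 43 gene lists examined.

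Genes that drive cell division were the group most clearly higher in both WL mice. Entry into mitosis is started by a cyclin-dependent kinase with cyclin B, chromosomes are then attached to the spindle at kinetochores, and the anaphase-promoting complex, with its activator, lets the sister chromatids part. Of the 52 genes of mitosis and cytokinesis, all of which could be tested, 46 lay above WW in both WL mice, 1 lay below and 5 overlapped, against 17.5% of all genes above. None passed the test on its own: the adjusted p of limma over all genes was 0.107 or more. The list median of the WL minus WW difference was 1.42, against -0.05 over all genes. It was 1.18 in WL replicate 1 and 1.62 in WL replicate 2, so the mouse whose profile was otherwise close to WW also had the higher mitosis levels. Without WL replicate 2, 49 members lay above WW, against 29.9% of all genes. Without WL replicate 1, 46 did, against 40.3% of all genes. With a single WL mouse fewer values must be separated. With the normexp correction the list median was 0.85, and 44 members lay above WW.

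Promoters of the 3 members with the widest gap are shown because the mitosis list was the clearest common difference of both WL mice. They are Kif2c, whose gap reaches down to WW signals not well above background, Cdk1 and Cdc20. The sequence is the 250 bases before the start of each gene, 5′ to 3′ on the gene's strand, from the RefSeq promoter table on GRCm38.p6. The windows are chr4:117178773-117179022 (minus strand) for Kif2c, chr10:69352913-69353162 (minus strand) for Cdk1 and chr4:118437344-118437593 (minus strand) for Cdc20. Capitals mark CCAAT, the box that the factor NF-Y binds, and TTTGAA, a form of the cell cycle genes homology region that the DREAM and B-MYB complexes use, each searched on both strands, so that ATTGG and TTCAAA are the same motifs read from the other strand.
Kif2c: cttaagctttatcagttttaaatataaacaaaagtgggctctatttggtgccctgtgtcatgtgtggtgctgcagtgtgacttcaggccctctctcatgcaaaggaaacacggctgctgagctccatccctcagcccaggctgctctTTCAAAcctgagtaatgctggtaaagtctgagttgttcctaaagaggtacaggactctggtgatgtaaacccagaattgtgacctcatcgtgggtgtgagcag
Cdk1: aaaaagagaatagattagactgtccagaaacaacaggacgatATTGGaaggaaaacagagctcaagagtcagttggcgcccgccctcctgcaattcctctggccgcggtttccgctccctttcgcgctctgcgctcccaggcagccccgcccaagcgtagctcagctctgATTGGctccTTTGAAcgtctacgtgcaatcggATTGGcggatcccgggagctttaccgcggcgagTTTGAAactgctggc
Cdc20: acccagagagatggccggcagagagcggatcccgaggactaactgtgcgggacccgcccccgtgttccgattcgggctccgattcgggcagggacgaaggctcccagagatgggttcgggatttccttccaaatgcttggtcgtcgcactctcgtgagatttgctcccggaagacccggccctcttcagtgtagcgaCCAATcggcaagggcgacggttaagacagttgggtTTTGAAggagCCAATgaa
The Cdk1 window holds 3 CCAAT and 2 TTTGAA matches, the Cdc20 window 2 and 1, and the Kif2c window 0 and 1. Of the 45 mitosis list members found in the table, 71.1% held CCAAT, 37.8% TTTGAA and 31.1% both, against 37.5%, 18.3% and 6.45% of the 27025 genes of the table. A match describes these letters in this window and is not evidence of a bound site.

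The anaphase activator Cdc20 (probe on chromosome 4, 118105534 to 118105593, mm9) was at 1.79 and 2.01 in WL and 0.32 and 0.26 in WW. Its WL mean was 3.04-fold that of WW, a log2 difference of 1.61 (SE 0.14, limma adjusted p = 0.107), with 95% limits of 1.26 and 1.95. The 2 groups were far apart for the spread within each, and both probes of the gene agreed in direction. Nuf2, a kinetochore subunit, was at -1.34 and -1.27 in WL and -2.84 and -2.69 in WW, 1.46 higher (SE 0.15, limma adjusted p = 0.147). Prc1, which bundles microtubules of the spindle midzone, was at 1.20 and 1.28 in WL and -0.08 and -0.26 in WW, and 3 of its 5 probes were separated. The proliferation antigen Mki67 was at 2.44 and 2.44 in WL and 1.22 and 1.23 in WW, a ratio of 2.32 in each WL mouse. These 4 genes differed little between the WL mice.

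The microtubule depolymerase Kif2c was not well above background on either WW array and was at -3.59 and -3.54 in WL, at least 2.46-fold higher in WL by the background bound. The mitotic kinase Cdk1 was at -2.22 and -0.77 in WL and -4.03 and -3.78 in WW, and here WL replicate 2 was the higher of the pair. Cdkn3, a phosphatase of that kinase, was at 0.10 and 0.95 in WL and -1.57 and -1.31 in WW. Cdca3, which helps trigger mitotic entry, was at 0.38 and 1.22 in WL and -1.28 and -0.97 in WW. Ect2, the exchange factor that places the contractile ring, was at -1.12 and -0.12 in WL and -2.42 and -2.54 in WW. In 42 of the 46 members above WW replicate 2 was the higher WL mouse, and in 21 of the 46 the WL mice lay within 0.5 of each other. The member below WW was Pttg1, the securin that holds back chromatid separation, at 4.59 and 3.72 in WL and 4.72 and 4.65 in WW. The LL mice, which share the recipient genotype, lay above WW in 48 of the 52 members and the LW mice in 3, with medians of 1.51 and -0.05. These comparisons share the WW arrays.

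**Figure D2:**
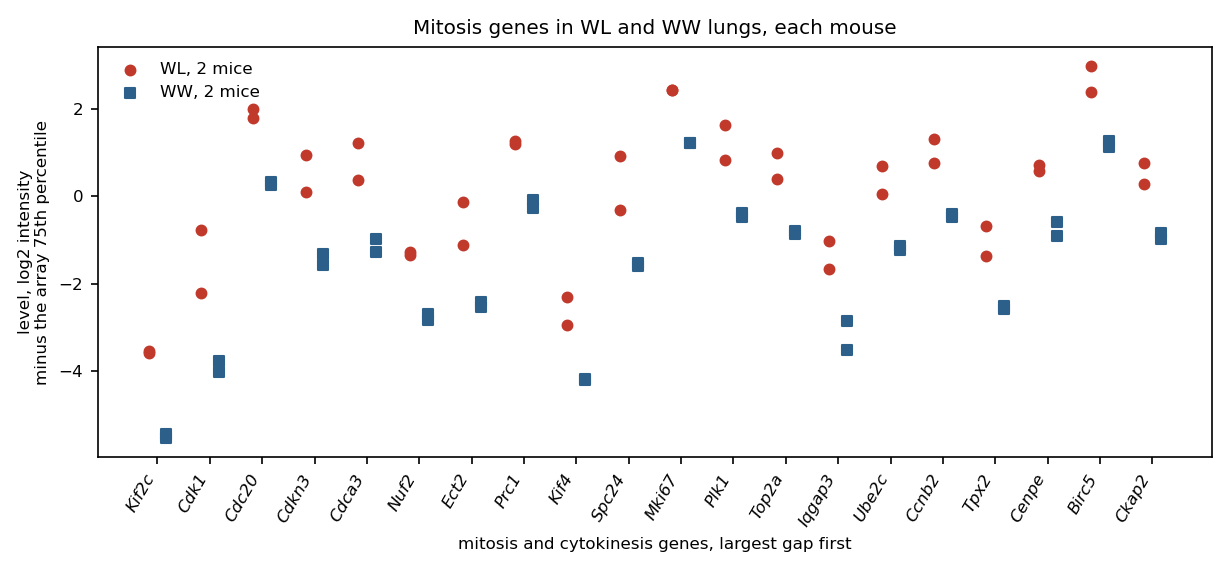
Levels (y axis, log2 intensity minus the array 75th percentile) of the 20 mitosis and cytokinesis genes with the widest gap (x axis), with 1 point per mouse, WL in red circles and WW in blue squares. In each of the 20 genes both WL points lie above both WW points; the WW points of Kif2c are not well above background.

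Other genes of proliferating cells stood beside the list. Spag5, a spindle protein, was at -1.68 and -1.30 in WL and -3.09 and -3.14 in WW. Pbk, a mitotic kinase, was at -1.57 and -0.62 in WL and -3.05 and -3.03 in WW, and Shcbp1, a midbody protein, was at -1.31 and -0.91 in WL and -2.55 and -2.59 in WW. Of 48 DNA replication and G1/S genes tested, 38 were above WW in both WL mice and 2 below, against 17.5% and 24.5% of all genes. The median was 0.72 (0.42 in replicate 1 and 0.98 in replicate 2). Uhrf1, which carries DNA methylation through replication, was at 0.86 and 1.43 in WL and -0.42 and -0.24 in WW. The exonuclease Exo1 was at -2.26 and -1.07 in WL and -3.31 and -3.36 in WW, the licensing control gene Dtl at -1.88 and -1.09 in WL and -3.03 and -2.88 in WW, and the replication initiation gene Mcm10 at -1.02 and -0.36 in WL and -1.91 and -1.95 in WW. The clamp loader subunit Rfc5 lay below, at 2.66 and 1.90 in WL and 3.28 and 3.14 in WW, while another of its probes was separated in the opposite direction.

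Histone genes, which are transcribed with DNA replication, were higher only in part. Of 37 clustered histone genes tested 17 lay above WW and 3 below, against 17.5% and 24.5% of all genes. The list median was 0.41. Hist1h2ab was at 3.86 and 3.76 in WL and 2.70 and 2.96 in WW, and Hist1h2ag at 6.01 and 6.27 in WL and 5.12 and 5.44 in WW. Hist1h3g was not above background in WW and was at -4.30 and -2.42 in WL. The mean of the WL mice was at least 2.80-fold higher, with replicate 2 the higher mouse. The linker histone Hist1h1c, whose transcript is also made outside S phase, was at 2.69 and 2.03 in WL and 3.07 and 3.01 in WW. Histone genes are near copies of each other, and how far a probe reads its neighbours was not measured.

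Several macrophage genes were higher in both WL mice. Of 21 genes of C1q and efferocytosis, the uptake of dying cells, 10 lay above WW and 4 below, against 17.5% and 24.5% of all genes. The median was 0.41 (0.11 in replicate 1 and 0.54 in replicate 2). Slc40a1 (ratios to the WW mean of 0.607 and 0.762), Mfge8 (0.914 and 0.87) and Gas6 (0.95 and 0.702) were lower in both WL mice. C1q, the starter of the classical complement pathway, is built from 3 chains that tissue macrophages make, and their genes are neighbours on chromosome 4. C1qa (136452409 to 136452468, mm9) was at 1.77 and 2.22 in WL and 0.99 and 0.79 in WW, 2.14-fold higher. C1qb was at 1.41 and 1.97 in WL and 0.60 and 0.35 in WW, and C1qc at 3.14 and 3.55 in WL and 2.41 and 2.35 in WW. The WL mice thus lay above WW for all 3 chains, with limma adjusted p-values of 0.417, 0.360 and 0.486. In LL mice, whose marrow carries the receptor too, the 3 genes were far below WW, C1qa at -3.70 and -3.97.

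Ficolin A (Fcna), a lectin of macrophages that activates complement, was at -2.03 and -2.23 in WL and -4.04 and -4.23 in WW, 4.01-fold higher, the widest gap among the higher genes that were above background on all 4 arrays. LW mice were at -2.96 and -3.04 for this gene, also above WW. The membrane protein Ms4a7 was at 1.86 and 1.76 in WL and 1.002 and 0.832 in WW, and the lysosomal protein Cd68 at 2.97 and 3.25 in WL and 2.30 and 2.40 in WW. Aif1 (IBA1), an actin-binding protein of macrophages, was at 2.77 and 2.45 in WL and 1.84 and 2.05 in WW. The C3a receptor C3ar1 was at -2.54 and -1.37 in WL and -3.25 and -3.30 in WW. The elastase Mmp12 was at -0.70 and 0.67 in WL and -1.72 and -2.24 in WW, with all 3 probes separated. The growth factor Igf1 was at 1.27 and 1.62 in WL and 0.38 and 0.33 in WW.

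Counted by list, 13 of 34 genes of monocytes and recruited macrophages lay above WW and 1, the integrin Itgam, below. The shares of all genes were 17.5% and 24.5%. The list median was 0.37 (0.18 in replicate 1 and 0.65 in replicate 2). The second probe of Itgam was separated in the opposite direction, and with the mean of its probes the difference was -0.006. Of 24 genes typical of alveolar macrophages, the resident cells of the airspace, 5 lay above WW and none below, with a median of 0.01, close to the background share. The 5 were Ctsk, Trem2, Ccl6, Mrc1 and Slc7a2. The protease Ctsk was at 2.88 and 2.92 in WL and 1.91 and 1.84 in WW, and the lipid receptor Trem2 at 1.88 and 2.67 in WL and 1.16 and 1.04 in WW. Of the defining genes of the resident cells, Siglecf and Marco overlapped with WW and parted the WL mice. The lectin Siglecf was at -0.20 and -2.90 in WL and -0.73 and -1.48 in WW, and the scavenger receptor Marco at 2.65 and -1.49 in WL and 1.73 and -0.39 in WW. Marco thus also differed between the WW mice, and it did between the LW mice (-0.57 and 1.72). Itgax overlapped with a smaller difference between the WL mice, at 2.57 and 2.26 in WL and 2.38 and 2.54 in WW. The list median was 0.45 in WL replicate 1 and -0.35 in WL replicate 2. The monocyte chemokine receptor Ccr2 was at 0.39 and 0.95 in WL and 0.64 and 0.72 in WW. Of 22 dendritic cell genes 5 lay above WW and 5 below, close to the background shares: Clec10a was at 0.12 and 1.11 in WL and -0.38 and -0.41 in WW, and Cd209a at -0.66 and -2.06 in WL and -0.11 and -0.23 in WW. Xcr1, the chemokine receptor of cross-presenting dendritic cells, was not above background in WW and was at -4.18 and -5.12 in WL, at least 1.16-fold higher. Its level in both WL mice sufficed to keep its probe, and its difference was -0.075 under normexp.

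**Figure D3:**
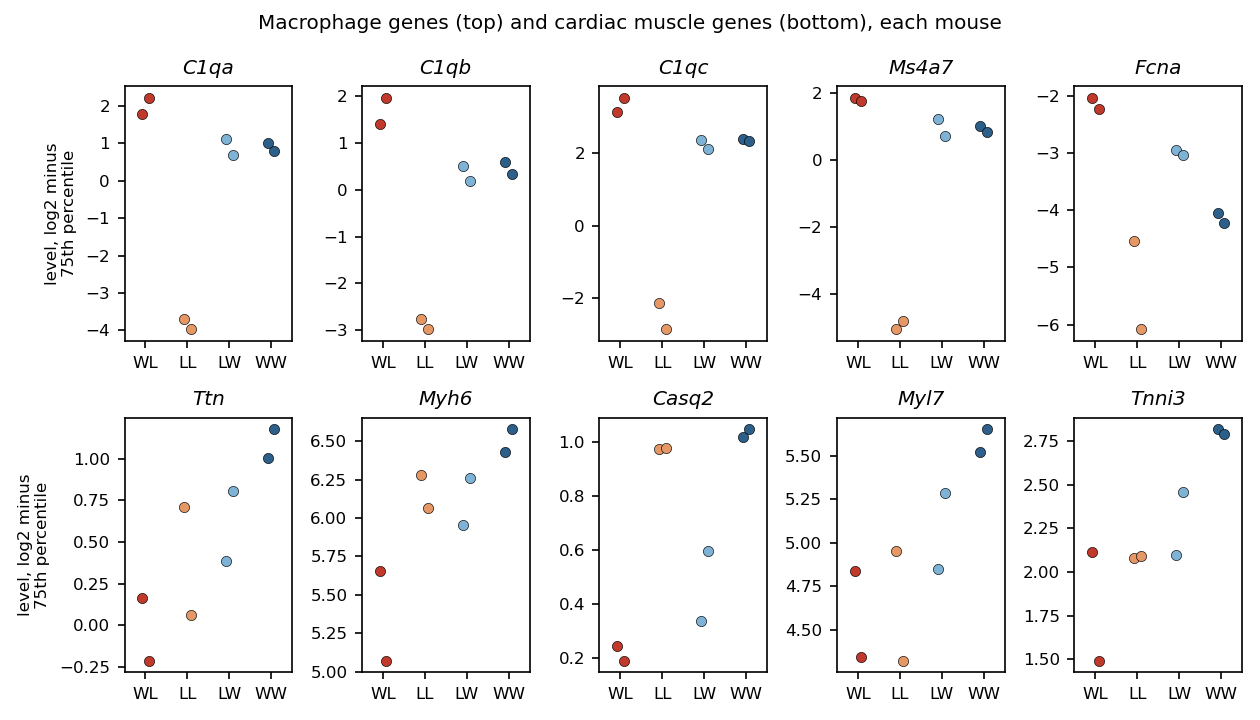
Levels (y axis, log2 intensity minus the array 75th percentile, each panel with its own range) of 5 macrophage genes (top) and 5 cardiac muscle genes (bottom) in each mouse, with groups WL, LL, LW and WW from left to right. The WL points are highest for the macrophage genes, LL is far lower, and for the cardiac genes the WW points are the highest of all 8.

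Genes of cardiac muscle were lower in both WL mice. In mice a sleeve of heart muscle surrounds the pulmonary veins inside the lung, and its contractile genes are seen in whole-lung RNA. Of 24 such genes tested 19 lay below WW in both WL mice and none above, against 24.5% of all genes below, and the median was -0.89 (-0.67 in replicate 1 and -1.18 in replicate 2). No member passed the test, and the smallest limma adjusted p among the 5 named here was 0.299, for Casq2. The giant sarcomere protein Ttn was at 0.16 and -0.21 in WL and 1.001 and 1.177 in WW. The atrial myosin heavy chain Myh6 was at 5.66 and 5.07 in WL and 6.43 and 6.58 in WW. The calcium store protein Casq2 was at 0.24 and 0.19 in WL and 1.02 and 1.05 in WW, the atrial light chain Myl7 at 4.84 and 4.34 in WL and 5.53 and 5.66 in WW, and troponin Tnni3 at 2.12 and 1.49 in WL and 2.82 and 2.79 in WW. The LL and LW mice also lay below WW in 19 and 18 of the 24 genes, with medians of -0.58 and -0.46, so the WW mice had the highest levels of this list among the 4 groups. How much vein or heart tissue each sample held is not given by the labels, and its part was not tested. Other muscle genes among the widest lower gaps were Mybph, a myosin-binding protein (-3.43 and -3.79 in WL, -2.37 and -2.33 in WW) and Tmem182 (-3.23 and -3.36 in WL, -2.29 and -2.28 in WW).

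The remaining lower genes with wide gaps formed no common list. Zan, which codes for the sperm protein zonadhesin, was at -3.78 and -4.20 in WL and -1.87 and -1.59 in WW, 4.79-fold lower in WL, on 1 of its 2 probes. LL mice were at -3.03 and -3.78 and LW mice at -1.56 and -1.64, so the gene was low in both groups of LysM-DTR recipients. The microtubule protein Map2 was at -0.46 and -0.48 in WL and 0.84 and 1.04 in WW, 2.65-fold lower, with all 4 probes separated. The transcription factors Fezf1 (-2.23 and -2.27 in WL, -1.07 and -0.68 in WW), Pax6 (-4.23 and -4.42 in WL, -3.16 and -2.83 in WW) and Lhx9 (-2.94 and -3.25 in WL, -1.95 and -1.33 in WW) were dim in all mice. Tmem184a was at 1.27 and 1.16 in WL and 2.27 and 2.25 in WW, 1.05 lower (SE 0.13, limma adjusted p = 0.249), while its second probe was separated in the opposite direction. The neutrophil granule genes Camp and Ngp, which are made by immature cells, were lower in WL too: Camp was at -2.60 and -1.70 in WL and 0.33 and -0.67 in WW, and LW mice were at -2.86 and -2.17. Of 31 neutrophil genes 5 were above and 3 below, both under the shares of all genes (17.5% and 24.5%). Ltf and Lcn2, also made by neutrophils, went the other way, with both WL mice above both WW mice. Agxt, Slc26a5 and Pklr were not above background in WL and were at least 6.07-fold, 5.46-fold and 4.35-fold lower in WL, though their WW mice differed by more than 1 log2 unit. Both WW mice had them above background, which sufficed to keep their probes. A level in WW above that of other groups was thus in part a condition of their being tested. LL mice were low too, with Agxt at -7.28 and -6.04. The LW mice differed from each other, at -6.22 and -1.63 for Agxt and -6.54 and -3.48 for Slc26a5. For Pklr they were at -4.35 and -5.47.

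A single gene passed the test across all genes. The predicted gene Gm3120 (probe on chromosome 6, 47110799 to 47110858, mm9) fell in WL: it was not above background on either WL array, at -6.98 and -7.38, and was at -3.70 and -3.76 in WW, at least 3.01-fold lower in WL (limma adjusted p = 0.0222). It is 1 of 25830 genes (0.00387%). It was also near those low levels in LL (-7.18 and -6.98) and LW (-6.53 and -6.49). Its probe was kept through the WW mice, where it is high, so that a difference of these mice from the others was a condition of its being tested. The call was lost without that filter (limma adjusted p = 0.0653), and with detection on all 8 arrays the gene was not tested. No gene passed in the higher direction. At an unadjusted p under 0.05 there were 815 higher genes (3.16%) and 1297 lower ones (5.02%). The fit pools the spread of all 4 groups, and the difference between the WL mice enlarges it: without WL replicate 1, which leaves replicate 2 to stand for the group alone, 9740 genes passed, and without WL replicate 2 the call was again Gm3120 alone. Without WW replicate 2, 9 genes passed, and without WW replicate 1, an LL array or an LW array none did. Nothing in the labels says more of the mice than that there were 2 per group.

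Several keratins of airway basal cells, the stem cells of the conducting airways, were higher in both WL mice, but not the whole list. Of 8 basal cell genes 5 lay above WW and none below, against 17.5% and 24.5% of all genes. The medians were 0.53 in replicate 1 and 1.07 in replicate 2. The other 3 overlapped with WW, with mean differences not above 0 and as low as -0.476. Summed over the list on the linear scale, levels were 12.48 and 11.75 in WL and 10.65 and 12.45 in WW. Krt15 was at -0.04 and 1.49 in WL and -2.54 and -1.61 in WW. Krt5 was at -1.05 and 0.59 in WL and -2.52 and -1.90 in WW, and Krt17 at -0.99 and -0.24 in WL and -1.59 and -1.52 in WW. Krt14 and the nerve growth factor receptor Ngfr were also separated, at -2.38 and -1.37 in WL and -2.91 and -2.83 in WW for Krt14. Krt15 in LW spanned -2.38 to -0.24.

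Of 14 EGF family ligands and receptors 3 lay above WW and 5 below (median -0.16), and of 49 other growth factors 6 lay above and 11 below (median 0.04), against 17.5% and 24.5% of all genes. The EGF receptor ligand amphiregulin (Areg) was at -0.70 and 1.64 in WL and -1.47 and -2.03 in WW, a ratio to the WW mean of 2.07 in replicate 1 and 10.5 in replicate 2. Its relative Hbegf, whose product is the natural DT receptor in species sensitive to the toxin, was at 2.39 and 4.09 in WL and 2.30 and 2.18 in WW. The regulator of G protein signalling Rgs16 was at -0.59 and 1.88 in WL and -2.00 and -1.90 in WW. Collagen chains Col1a1 (3.84 and 4.69 in WL, 3.40 and 3.08 in WW) and Col3a1 (4.04 and 4.81 in WL, 3.57 and 3.09 in WW) and the Wnt antagonist Sfrp1 (-1.33 and -0.35 in WL, -1.94 and -2.26 in WW) were among 13 of 30 fibroblast and collagen genes above WW, with 1 below. The matrix protein Thbs4 was not above background in WW and was at -3.32 and -2.55 in WL, with a mean at least 3.81-fold higher. The neutrophil chemokine Cxcl3, also not above background in WW, was at -4.66 and -1.70 in WL, with a mean at least 3.21-fold higher.

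Interferon and acute phase genes were likewise separated by small distances in replicate 1 and larger ones in replicate 2. Of 33 type I interferon response genes 20 lay above WW and none below, against 17.5% and 24.5% of all genes. The median was 0.20 in replicate 1 and 0.63 in replicate 2. The ubiquitin-like protein Isg15 was at 3.40 and 4.54 in WL and 2.92 and 3.02 in WW, and Ifi44 at 0.17 and 0.24 in WL and -0.29 and -0.28 in WW. Without WL replicate 1, 26 members were above and 6 below, against 40.3% and 48.6% of all genes. Among 29 acute phase genes 15 lay above and 3 below, against 17.5% and 24.5% of all genes. Complement factor B (Cfb) was at 3.08 and 4.24 in WL and 2.47 and 2.37 in WW, and lipocalin 2 (Lcn2), which withholds iron from bacteria, at 5.04 and 6.80 in WL and 4.33 and 4.29 in WW. Lactoferrin (Ltf), an iron-binding protein of neutrophils and airway glands that was counted with the neutrophil genes, was at 3.32 and 4.82 in WL and 2.15 and 2.46 in WW.

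Many genes were far from WW in WL replicate 2 alone. The protease inhibitor Timp1 was at 1.87 and 7.94 in WL and 1.389 and 1.098 in WW, a ratio to the WW mean of 1.54 in replicate 1 and 104 in replicate 2. Sprr1a, a cornified envelope gene, was at -2.83 and 4.30 in WL and -2.98 and -3.10 in WW. Adamts4, a protease of proteoglycans, was at -1.66 and 4.92 in WL and -1.51 and -2.06 in WW. The chemokines Cxcl1 (-1.70 and 4.12 in WL, -1.49 and -2.46 in WW) and Ccl2 (-0.13 and 5.62 in WL, -0.14 and -0.87 in WW) and Pbp2 (-4.40 and 1.85 in WL, -4.19 and -4.01 in WW) followed. In each of these 6 genes replicate 1 was within 0.8 of the WW mean and replicate 2 was more than 5 units above it. The LL mice were also high, with Timp1 at 4.72 and 5.90 and Cxcl1 at 3.53 and 3.91.

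Transitional state and type 2 cell genes of the alveolar epithelium showed the same split. The transitional state is a keratin-rich form between type 2 and type 1 cells that appears when alveoli regenerate. Of its 30 genes 13 lay above WW in both WL mice and none below, against 17.5% and 24.5% of all genes. However, the median was 0.06 in replicate 1 and 1.79 in replicate 2. The keratin Krt8 was at 4.95 and 7.11 in WL and 4.75 and 4.78 in WW, and Krt19 at 3.76 and 5.90 in WL and 3.66 and 3.63 in WW. Of 23 type 2 cell genes 11 lay below WW and 1 above, against 24.5% and 17.5% of all genes, with medians of -0.11 and -1.56. Etv5, a transcription factor that maintains type 2 cells, was at 4.56 and 2.21 in WL and 4.84 and 4.86 in WW, and the surfactant lipid transporter Abca3 at 5.63 and 4.43 in WL and 5.89 and 5.93 in WW. Lyz2, the gene whose promoter drives the receptor, was at 8.70 and 7.36 in WL and 9.05 and 9.09 in WW. Type 1 cell genes were less split: of 20 genes 13 lay below and 1 above, against 24.5% and 17.5% of all genes, with medians of -0.14 and -0.52. LL mice went the other way, with 12 of the 20 above WW and 2 below. Hopx was at 5.64 and 4.70 in WL and 6.153 and 5.995 in WW, and Ager at 8.01 and 7.90 in WL and 8.25 and 8.24 in WW, with 3 of its 7 probes separated. Acoxl was at 2.73 and -2.15 in WL and 3.08 and 3.29 in WW, and Lgi3, a gene of type 2 cells, at 1.71 and -2.44 in WL and 2.05 and 1.80 in WW.

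**Figure D4:**
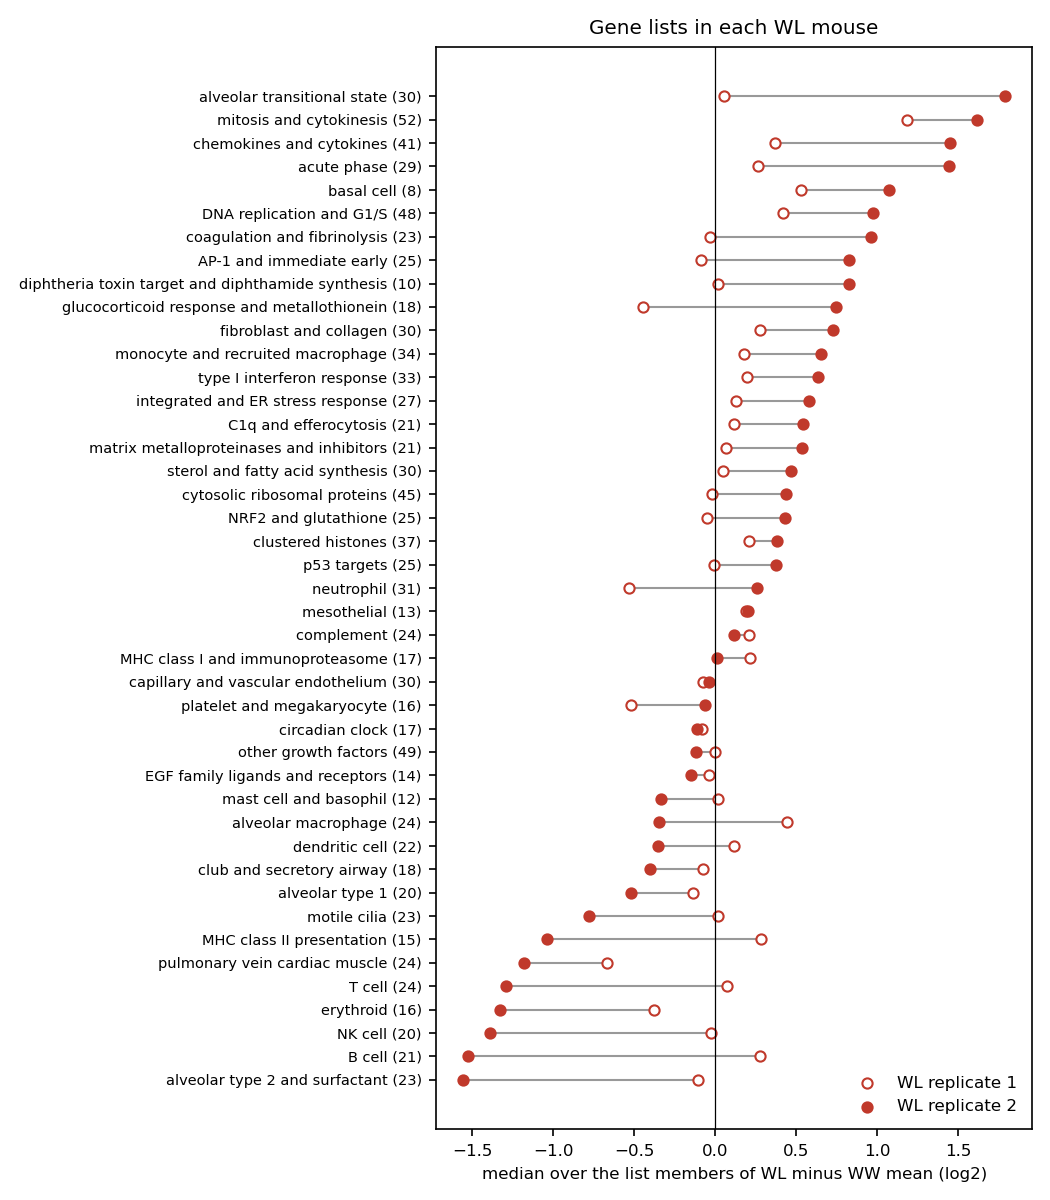
Median over the members of each gene list (y axis, with the number of genes tested in brackets) of the difference from the WW mean (x axis, log2) in WL replicate 1 (open circles) and WL replicate 2 (filled circles). Mitosis is far from 0 in both mice (1.18 and 1.62), whereas the transitional state, type 2 cell, T, B and NK cell lists are near 0 in replicate 1 and far from it in replicate 2.

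Lymphocyte lists belong to the same pattern. NK cell genes had medians of -0.03 in replicate 1 and -1.39 in replicate 2, T cell genes 0.07 and -1.29, and B cell genes 0.28 and -1.53. In both WL mice 9, 9 and 2 members of these lists of 20, 24 and 21 genes lay below WW, against 24.5% of all genes. The B cell count was under that share. The pan-leukocyte gene Ptprc was at 4.356 and 4.002 in WL and 4.43 and 4.43 in WW. Erythroid genes were below WW in 12 of 16 (medians -0.38 and -1.33), against 24.5% of all genes. LW mice, whose recipients are wild type, also lay below WW in 10 of 16 erythroid and 10 of 16 platelet genes (medians -0.52 and -0.646). LL mice did so in 4 and 13, so low levels of these lists were not particular to WL. Platelet genes lay below WW in both WL mice in 6 of 16, against 24.5% of all genes. Among them were the chemokine Ppbp at 1.47 and 0.85 in WL and 1.94 and 2.58 in WW and the collagen receptor Gp6 at -2.90 and -3.08 in WL and -2.44 and -1.93 in WW.

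Of 18 genes induced by glucocorticoids 5 lay below WW and 1 above, close to or under the shares of all genes. Among these 5, the transcription factors Zbtb16 (1.27 and 1.64 in WL, 2.42 and 2.94 in WW) and Klf9 (2.84 and 2.53 in WL, 3.31 and 3.40 in WW), Tsc22d3, which codes for a leucine zipper protein induced by the hormone (4.41 and 3.90 in WL, 4.98 and 5.07 in WW), and the sulfotransferase Sult1a1 (2.41 and 2.37 in WL, 2.79 and 3.01 in WW) were lower in both WL mice. Of the 18 genes 12 were more than 1 unit higher in WL replicate 2 than in WL replicate 1. The list medians were -0.44 in replicate 1 and 0.75 in replicate 2. In LL mice 14 of the 18 lay above WW and in LW mice 14 lay below.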

How the data were processed

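Total lung RNA of each mouse was read on its own one-colour (Cy3) array. Per the file headers, the deposited intensity values were extracted with Agilent Feature Extraction 11.5.1.1, with background subtraction and detrending within the array and no scaling between arrays, and probe positions are on mm9. The deposited series table holds log2 values and differed by at most 0.007 in the median from the log2 processed signal minus the array's 75th percentile.

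Non-uniform spots (0 to 4 per array) and control spots were left out, spots of a probe were averaged, and log2 values were centred on the 75th percentile. A probe was kept if some group had it well above background in both mice (39602 probes), and the brightest represented its gene (25830 genes). The test was limma 3.58.1 in R 4.3.3, with 4 group means on 8 arrays and Benjamini-Hochberg adjustment, called at an adjusted p under 0.05. It was tried on simulated data with the same spread in all groups. In these mice the SD of the median gene was 0.31 in WL and 0.10 in WW, which that simulation does not cover. A fold at background is a bound for the mean of a group and not for each mouse. It takes, for the dim group, the higher of the dim probe's own signal and the lowest signal among probes above background. Promoters are from RefSeq tables (GRCm38.p6). Alternatives changed the background correction, scaling, filter, probe summary, variance model and arrays used. Figures were drawn with Python 3.11.15.

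Genes were named only if they carry a gene symbol (predicted genes and immune receptor segments were counted): the 12 with the widest gap in each direction above background on all 4 arrays, the 6 with the widest gap and WL mice within 0.5, the 6 with the largest difference between the WL mice, the 3 with the largest bound, called genes and those with the smallest p, up to 5 of each list in each direction, and a fixed set of markers. The members and the gene lists were chosen with earlier results of these data known. P-values measure the spread between these mice only, and the number of arrays limits the precision. Some genes that the rule names are not reported here.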

Additional observations from a re-analysis of the deposited data

Results flagged for a closer look

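The same change of recipient genotype can be read as WL minus WW with wild-type marrow and also as LL minus LW with LysM-DTR marrow, in 2 pairs of groups that share no array. The difference between both effects was tested with limma over all 25830 genes, and 16 genes passed. Of the genes named above 6 were among them, each with a difference between the effects that passed the test. Ms4a7 was at 0.90 for WL minus WW and -5.90 for LL minus LW, a difference of 6.80 (SE 0.30, limma adjusted p = 0.00892). C1qa was at 1.1 and -4.73, a difference of 5.83 (limma adjusted p = 0.0216), C1qc at 0.96 and -4.75, a difference of 5.71, and C1qb at 1.22 and -3.23, a difference of 4.44. Aif1 was at 0.67 and -2.85, a difference of 3.51 (limma adjusted p = 0.0433). In these 5 macrophage genes the estimates of both effects thus had opposite signs, and LL minus LW was the larger in size. The WL minus WW difference of none of the 5 passed on its own (limma adjusted p of 0.360 to 0.486). Gm3120 was at -3.45 and -0.57, a difference of -2.88, but it was not above background in WL, LL or LW and was tested only through its level in WW, so these values are not measured differences between detected levels. Groups of 2 are too small for a test of single outlying mice.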

How the results depend on the processing

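With 2 mice per group the results depend mainly on the mice. Leaving out 1 array at a time gave 0 to 9740 called genes, 4527 to 10404 genes above and 6316 to 12553 below WW, and 98 to 1980 and 52 to 2149 genes apart by at least 1 unit; with a single mouse in a group, whose spread is then assumed to be that of the others, fewer values must be separated. The 1 called gene was lost (0 called) under normexp, no filter, a filter for detection on all 8 arrays, WL and WW arrays alone, a trended robust variance and array weights, where 860 to 3703 genes had an unadjusted p under 0.05. Under normexp 9587 genes lay below WW and 16 and 1 were apart by at least 1 unit, since its offset compresses dim probes; without a filter, which adds probes at background, 11817 lay below and 222 were apart in that direction, and with detection on all 8 arrays 56 and 13 were apart. Quantile scaling, another percentile, the mean of probes, the deposited series table and the omission of population outlier spots (chosen after seeing the data) each called 1 gene.

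The replicate number as a block gave 0 calls and left the separated genes as they were. The correlation of deviations of same-numbered mice across genes was -0.069 for WL with WW, 0.19 for LL with WL and between -0.097 and 0.052 for the other pairs of groups, so that not every pair was over 0.1 and the mice were taken to share only a number. All arrays share 1 slide and 1 scan, so that block could not be fitted.

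Some gene differences turned sign; the cause was not tested. Under normexp they were Clspn (-0.034), Itgax (0.007), Ccr2 (0.025), Xcr1 (-0.075), Cfi (-0.023) and Marco (0.042), and with the mean of probes Itgax (0.08). Leaving out 1 array at a time, the difference ran from -1.792 (without WL replicate 1) to 0.912 (without WL replicate 2) for Siglecf, from -0.202 to 0.114 for Itgax, from -1.646 to 0.164 for Cd79a, from -2.162 to 1.978 for Marco and from -0.296 (without WL replicate 2) to 5.947 (without WL replicate 1) for Pbp2. It ran from -0.293 to 0.268 for Ccr2 and from -0.64 (without WL replicate 1) to 3.54 (without WL replicate 2) for Creg2. Without WW replicate 1 Marco was at 0.964, and without WW replicate 2 Itgax was at 0.034 and Ccr2 at 0.027. In the mitosis list 42 to 48 members lay above WW under the other settings, and 18 to 20 cardiac muscle genes lay below; whether they were the same members was not counted. Signal over background limits the dim genes: of the 98 higher genes 29 were at background on both WW arrays, and of the 52 lower genes 29 on both WL arrays. Among genes given a bound, the difference under settings other than leaving out an array was as small as 0.138 for Kif2c. It was as small as 0.263 for Thbs4, 0.207 for Hist1h3g and 0.582 for Cxcl3. For Agxt, Slc26a5 and Pklr it was as small as -1.028, -0.853 and -0.735.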

Other observations

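Immunoglobulin segments stood out although they were in no list, and they were looked at after their values had been seen. Of 193 genes described as immunoglobulin heavy, kappa or lambda chains, 96 lay above WW in both WL mice and 7 below, against 17.5% and 24.5% of all genes, and 20 were apart by at least 1 log2 unit. The 20 lie on chromosome 6, which holds the kappa locus (14), and chromosome 12, which holds the heavy chain locus (6), and their WL minus WW differences ran from 1.26 to 3.54. Medians over the 193 were 1.27 in WL replicate 1, 0.26 in WL replicate 2, -0.50 in LL and 0.37 in LW, each relative to WW. In 15 of the 20 the LW mice also lay above both WW mice. B cell genes did not follow them, with medians of 0.28 in replicate 1 and -1.53 in replicate 2, and Xbp1, the factor of plasma cells, was at 5.19 and 5.83 in WL and 5.07 and 5.01 in WW. Segments are near copies of each other, so single probes may read several.

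Creg2, a secreted glycoprotein gene, was high in 1 mouse only: it was at 0.08 in WL replicate 1 and -4.10 in WL replicate 2, at -3.63 and -3.29 in WW and between -4.46 and -3.70 in the LL and LW mice.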
